A study of Mus musculus with 90 samples.

Results

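Whether the diet changes what loss of the hepatocyte glucocorticoid receptor (GR) does to liver transcripts was measured at zeitgeber time (ZT) 16 as an interaction: the log2 difference between GR-deficient and wild-type livers on caloric restriction (CR) minus the same difference on the control diet. All bulk liver libraries of the time series labelled ZT16 entered it, whatever their values, which makes 13 of the 90 libraries of the series. They hold poly(A) RNA of whole livers from adult male C57BL/6J mice. The wild-type group (WT) carries the floxed receptor gene without Cre (GRfl/fl), and the knockout group (GRLKO) carries the same floxed alleles with Alb-Cre (GRfl/fl x Alb-Cre), whose albumin promoter directs the removal of the receptor to hepatocytes. Mice on CR had their food lowered week by week to 40% fewer calories and received it at ZT12, when the lights went off. Control mice ate freely until the final week, when food was open to them from ZT12 to ZT0, so every liver was taken 4 h after food became available. There were 3 WT and 3 GRLKO livers on CR, and 4 WT and 3 GRLKO livers on the control diet. The libraries of each diet were deposited in a table of their own under a separate series of library identifiers, so diet and library set cannot be told apart in a level. The interaction sets only differences formed within a diet against each other. A genotype difference that depends on the library set would also enter it and cannot be told apart from one that depends on diet.

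Total estimated counts ran from 14235473 to 19135928 in the WT livers on CR (median 17549564) and from 16180253 to 16815530 in the GRLKO livers on CR (median 16357083). On the control diet they ran from 13699308 to 17089004 in WT (median 15125722) and from 13029116 to 14595267 in GRLKO (median 13407893). Within groups no library was a copy of another: over the 15 replicate pairs, the chi-square of the counts per degree of freedom was at least 15.89.

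GR is a nuclear receptor that binds corticosterone, the main glucocorticoid of mice, and then acts on DNA to raise or lower the transcription of its target genes. In the liver it is known for raising genes of glucose production and amino acid breakdown during fasting and for damping inflammation. Corticosterone in mice is highest around the onset of the dark phase, and food shortage raises it.

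Nr3c1, the gene for GR, was the first check of the labels. It stood at 74.9, 92.2 and 92.1 CPM (counts relative to library size, scaled by edgeR's TMM) in the WT livers on CR and at 22.6, 24.8 and 24.5 in the GRLKO livers. On the control diet it stood at 81.0, 93.1, 118 and 75.3 in WT and at 22.9, 26.3 and 28.8 in GRLKO. Every GRLKO library lay below every WT library on both diets, so each library carried the level its label called for. The genotype difference was -1.85 (SE 0.16) on CR and -1.82 (SE 0.15) on the control diet, on the log2 scale. The interaction was -0.03 (SE 0.21; edgeR's quasi-likelihood test, Benjamini-Hochberg adjusted p = 0.984), so a difference in the depth of the deletion between diets was not detectable with 3 to 4 livers a group. Transcript from the other cell types of the liver remains in whole-tissue RNA. In such bulk samples, fewer cells of a type and less RNA per cell cannot be told apart.

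The hepatocyte markers set the tissue label against the data: 7 of the 8 markers were in the tables, Alb was the most abundant transcript of each library, and the marker sum lay between 75000 and 144000 CPM in all 13 libraries. That sum was lower in every GRLKO library than in every WT library on both diets: 104000 to 130000 against 137000 to 144000 CPM on CR, and 75000 to 87200 against 90400 to 101000 CPM on the control diet. None of the 7 markers was called in the interaction, and their median interaction was 0.01. Hnf4a alone of them was under an unadjusted p of 0.05, and DESeq2 called none, against 1306 and 186 of all 12385 genes tested.

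The genotype difference was unlike on the diets, each a library set of its own, for a small set of transcripts at ZT16. Most of these were lower without GR on CR and near the WT level, or above it, on the control diet. The cholesterol genes Insig1 and Lss, the lipogenic regulator Mid1ip1 and the mitochondrially encoded mt-Nd3, mt-Atp6 and mt-Atp8 were among them, while the acute phase transcript Serpina3k lay below WT on both diets and further below on CR. In the other direction, the lipase inhibitor Angptl4 and the glucocorticoid-induced leucine zipper Tsc22d3 were much lower without GR on the control diet and were not on CR, where Angptl4 lay above WT. Car3 and the ketone body enzyme Bdh1 stood further above WT on CR than on the control diet, Car1 stood above WT on CR alone, and Saa4 stood above WT on CR and below it on the control diet. The low level of mt-Nd3 also divided livers of a single genotype, diet and time. At ZT20 the 3 GRLKO livers on CR held 860, 209 and 187 CPM of the library total.

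Of 12385 genes tested, 29 (0.234%) were called at an adjusted p under 0.05, 8 with a positive interaction (0.0646%) and 21 with a negative interaction (0.17%), by the quasi-likelihood test of edgeR (Benjamini-Hochberg). The median interaction of all genes tested was 0.01 on the log2 scale, and 1306 genes were under 0.05 before adjustment. DESeq2, run on the same 13 libraries, called 186 genes, all 29 of these among them. A fit of all 78 time series libraries called 65 genes, 15 of these among them; the calls of Angptl4, Tsc22d3, Car3, Bcat2, Hmox1, Rnd2, Rnd3, Mid1ip1, Insig1, Lss, D930016D06Rik, Tfec, Slc25a44 and Qk were not made there. Without replicate 3 of the WT livers on CR edgeR called 18 genes, and without replicate 3 of the WT livers on the control diet it called 49.

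The genotype difference was the larger on CR for 23 of the 29 genes and the larger on the control diet for 6. It had opposite signs on the diets for 14 genes and the same sign for 15. Among the 21 genes with a negative interaction, all GRLKO libraries lay below all WT libraries on CR for 19, and all lay above WT on the control diet for 7. Among the 8 with a positive interaction, all GRLKO libraries lay above all WT libraries on CR for 7, and all lay below WT on the control diet for 4. These genes were chosen by this very contrast, so the counts describe the shape of the calls. The share of all genes tested with libraries as fully apart is not given here. The counts therefore have no background to be read against.

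**Figure D1:**
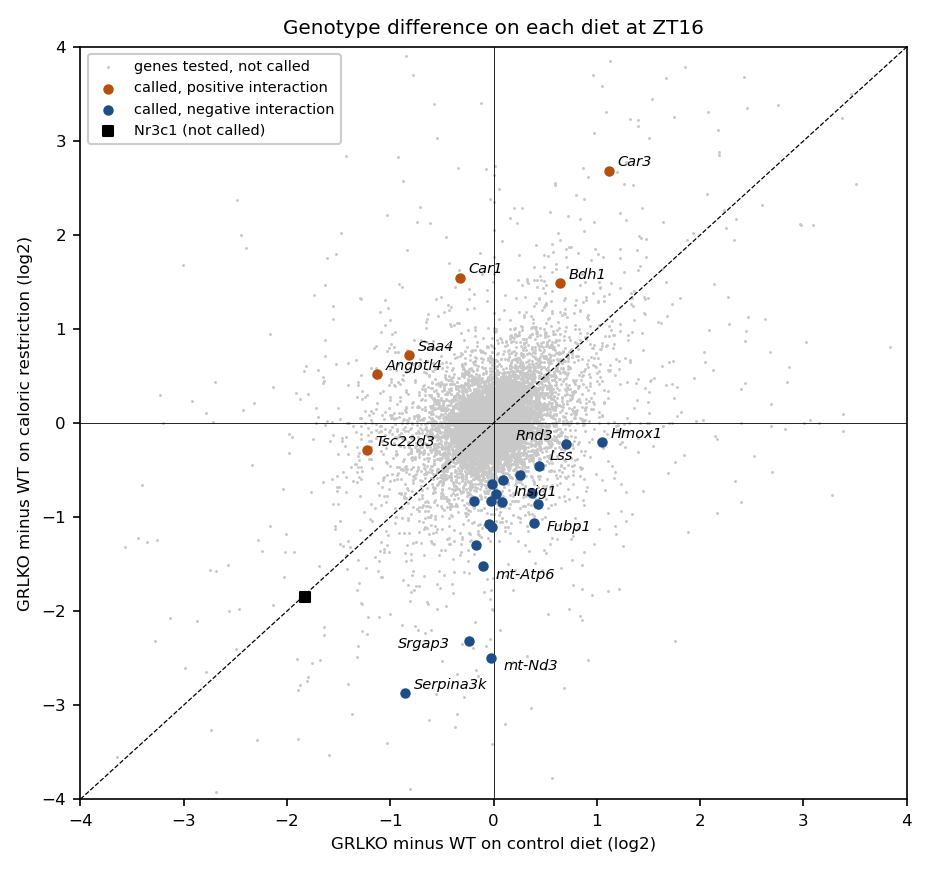
Log2 difference of GRLKO minus WT at ZT16 for each gene tested, on the control diet (horizontal axis) and on caloric restriction (vertical axis), with the 29 called genes coloured by the sign of the interaction. Blue genes lie below the dashed line of equal differences and orange genes above it, Nr3c1 lies on it, and 3 called genes with a group at 0 counts (Bcat2, Ddx46 and Tfec) are beyond the axes, which end at 4 in either direction.

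Angptl4 codes for a secreted inhibitor of lipoprotein lipase that fasting and glucocorticoids are known to raise. It stood at 24.5, 32.0 and 23.8 CPM in the WT livers on CR and at 39.3, 42.0 and 34.0 in the GRLKO livers on CR. On the control diet it stood at 46.9, 46.2, 40.4 and 50.4 in WT and at 20.4, 22.0 and 20.8 in GRLKO. The groups did not overlap on either diet, and their order was reversed between the diets. The GRLKO mean was 1.44 times the WT mean on CR and 0.458 times on the control diet, which gives an interaction of 1.65 (SE 0.17; edgeR's quasi-likelihood test, Benjamini-Hochberg adjusted p = 0.00108).

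Tsc22d3, which codes for an anti-inflammatory mediator and is a standard GR target, stood at 166, 164 and 143 CPM in WT and at 122, 123 and 143 in GRLKO on CR. The control values were 167, 142, 140 and 146 CPM in WT and 57.7, 65.5 and 67.3 in GRLKO. The groups were far apart on the control diet and close on CR. Its log2 genotype difference was -1.23 (SE 0.09) on the control diet and -0.29 (SE 0.10) on CR, an interaction of 0.94 (SE 0.13; edgeR's quasi-likelihood test, Benjamini-Hochberg adjusted p = 0.0141). Both calls held when any 1 of the 13 libraries was left out, and neither gene was called in a fit of all 78 time series libraries, where the Benjamini-Hochberg adjusted p of edgeR's quasi-likelihood test was 0.205 for Angptl4 and 0.165 for Tsc22d3.

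Angptl4 and Tsc22d3 were the called members of the 32 GR target genes tested, all in the tables; 2 were called positive and 0 negative. The median genotype difference of this list was -0.52 on CR and -1.05 on the control diet, and the median interaction was 0.13, against 0.01 for all genes. On the control diet 30 of the 32 lay below 0, and on CR 25 did. Fkbp5, a co-chaperone of GR whose transcript responds to the hormone, stood at 73.3, 84.8 and 61.1 CPM in WT and 20, 27.7 and 22.5 in GRLKO on CR. Its control values were 53.1, 49.7, 54.0 and 53.0 in WT and 12.4, 14.4 and 11.8 in GRLKO. It was lower without GR in every library of both diets, and its interaction of 0.39 (SE 0.18) was not called (edgeR's quasi-likelihood test, Benjamini-Hochberg adjusted p = 0.496). G6pc, which codes for the last enzyme of glucose production, stood at 363, 421 and 362 CPM in WT and 441, 443 and 672 in GRLKO on CR. The control values were 257, 360, 253 and 224 in WT and 155, 116 and 142 in GRLKO. The genotype groups were in opposite order on the diets, and the interaction of 1.43 (SE 0.27) missed the threshold (edgeR's quasi-likelihood test, Benjamini-Hochberg adjusted p = 0.0654).

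Car3 and Car1 code for carbonic anhydrases, of which Car3 is abundant in fat and in male liver. Car3 stood at 474, 696 and 549 CPM in WT and 3560, 3570 and 3920 in GRLKO on CR, and at 3150, 2860, 2000 and 2100 in WT and 5650, 5580 and 5200 in GRLKO on the control diet. It was above WT in every GRLKO library, 6.43 times the WT mean on CR and 2.17 times on the control diet. The interaction was 1.57 (SE 0.24; edgeR's quasi-likelihood test, Benjamini-Hochberg adjusted p = 0.0158). Car1 stood at 2.10, 3.26 and 2.44 CPM in WT and 6.64, 7.83 and 8.24 in GRLKO on CR, and between 4.11 and 8.06 in the control livers, where the genotypes overlapped. Its interaction was 1.87 (SE 0.31; edgeR's quasi-likelihood test, Benjamini-Hochberg adjusted p = 0.0313).

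Bdh1 codes for the mitochondrial enzyme that interconverts the ketone bodies acetoacetate and 3-hydroxybutyrate. It stood at 83.4, 96.8 and 81.7 CPM in WT and 233, 242 and 260 in GRLKO on CR, and at 179, 181, 142 and 159 in WT and 289, 237 and 249 in GRLKO on the control diet. Every GRLKO library lay above every WT library on both diets, 2.81 times the WT mean on CR and 1.56 times on the control diet. Its interaction was 0.85 (SE 0.15; edgeR's quasi-likelihood test, Benjamini-Hochberg adjusted p = 0.0499). It was the called member among 39 tested of the 40 fatty acid oxidation, ketogenesis and PPARalpha genes (1 positive, 0 negative), whose median genotype difference was 0.38 on CR and 0.27 on the control diet and whose median interaction was 0.12. Ugt3a1 and Acot13, a sugar-transferring detoxification enzyme and an acyl-CoA thioesterase, came next among the positive genes at adjusted p values of 0.0522 each in the same quasi-likelihood test of edgeR (Benjamini-Hochberg). Ugt3a1 was 2.27 times WT on CR and 1.19 times on the control diet, and Acot13 was 2.16 and 1.45 times WT.

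The calls of Car1, Car3 and Bdh1 were lost in 8, 4 and 11 of the 13 fits that left out 1 library. Their log2 ranges over those fits were 1.69 to 2.06 for Car1, 1.45 to 1.73 for Car3 and 0.78 to 0.93 for Bdh1.

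**Figure D2:**
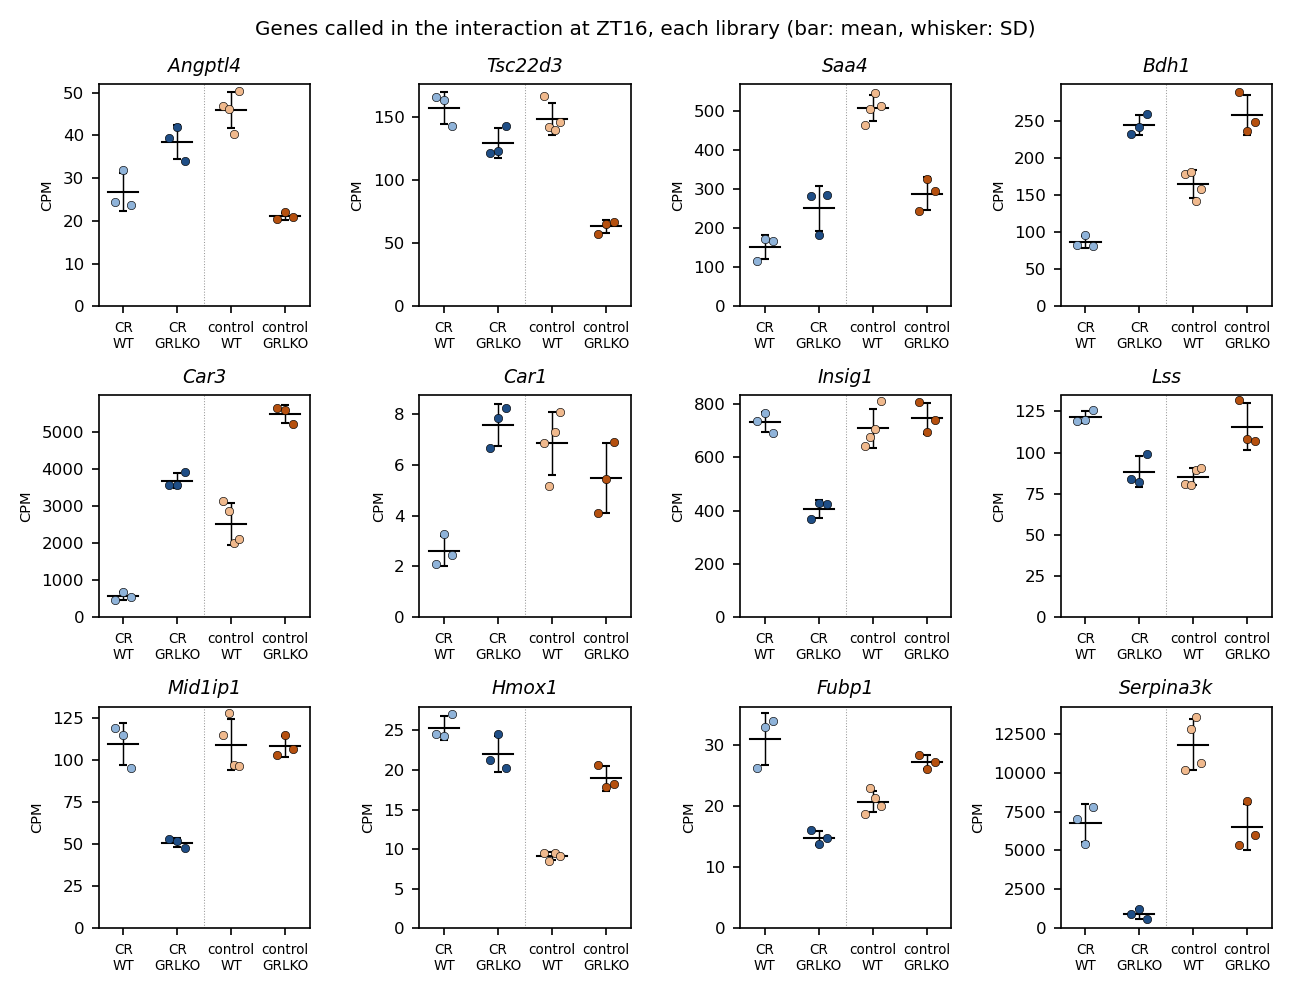
CPM of 12 called genes in each of the 13 livers, by diet and genotype, with the mean (bar) and SD (whisker) of each group. Angptl4 and Tsc22d3 separate by genotype mostly on the control diet, and Insig1, Mid1ip1 and Serpina3k mostly on caloric restriction.

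The acute phase genes had 1 called member in each direction among 38 tested of 39, and a median interaction of 0.07. Saa4, a constitutive serum amyloid protein of high-density lipoprotein, stood at 116, 172 and 167 CPM in WT and 282, 183 and 286 in GRLKO on CR, and at 464, 504, 546 and 513 in WT and 243, 327 and 294 in GRLKO on the control diet. It was above WT without GR on CR and below WT on the control diet, with no overlap on either. Its interaction was 1.54 (SE 0.25; edgeR's quasi-likelihood test, Benjamini-Hochberg adjusted p = 0.0289). Serpina3k, a secreted protease inhibitor, stood at 7050, 5410 and 7780 CPM in WT and 924, 1240 and 600 in GRLKO on CR, and at a mean of 11782 (SD 1677, 4 livers) in WT and 5340, 8190 and 6000 in GRLKO on the control diet. It was below WT without GR on both diets, at 0.137 times the WT mean on CR and 0.553 times on the control diet. The interaction was -2.02 (SE 0.33; edgeR's quasi-likelihood test, Benjamini-Hochberg adjusted p = 0.0289). Serpina3k belongs to a cluster of near-identical Serpina3 genes and shares exon sequence with Serpina3m in the annotation, so its counts are uncertain. The Saa4 and Serpina3k calls were each lost in 8 of the 13 fits that left out 1 library.

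Cholesterol genes held 2 of the negative calls. Insig1 codes for the membrane protein that holds the SREBP transcription factors back when sterols are plentiful, and SREBP in turn raises Insig1. It stood at 737, 766 and 693 CPM in WT and 369, 428 and 426 in GRLKO on CR, and at 643, 675, 707 and 810 in WT and 809, 694 and 739 in GRLKO on the control diet. The genotypes were apart on CR, where GRLKO had 0.557 times the WT mean, and overlapped on the control diet. The interaction was -0.92 (SE 0.14; edgeR's quasi-likelihood test, Benjamini-Hochberg adjusted p = 0.0145). Lss, which codes for lanosterol synthase, stood at 119, 120 and 126 CPM in WT and 84.0, 82.0 and 99.2 in GRLKO on CR, and at 81.2, 80.5, 89.5 and 90.4 in WT and 132, 108 and 107 in GRLKO on the control diet. Its genotype groups did not overlap on either diet and stood in opposite order. The interaction was -0.90 (SE 0.13; edgeR's quasi-likelihood test, Benjamini-Hochberg adjusted p = 0.0149).

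All 25 genes of the cholesterol synthesis and uptake list were tested; 0 were called positive and 2 negative, and 24 of the 25 interactions were below 0. Their median was -0.26, against 0.01 for all genes, with a median genotype difference of -0.25 on CR and 0.11 on the control diet. Mvd, which codes for mevalonate diphosphate decarboxylase, had an interaction of -1.90 (SE 0.41), not called by edgeR and called by DESeq2. Pmvk was the gene above 0, at 0.08 (SE 0.24). The Insig1 call held when any 1 library was left out. The Lss call did not hold without replicate 3 of the WT livers on CR (adjusted p = 0.0536, the quasi-likelihood test of edgeR (Benjamini-Hochberg)).

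Mid1ip1 codes for a protein that activates acetyl-CoA carboxylase, the first step of fatty acid synthesis. It stood at 119, 115 and 95.5 CPM in WT and 53.2, 52.2 and 47.7 in GRLKO on CR, and between 96.8 and 128 in the 7 control livers. It was apart by genotype on CR and not on the control diet (interaction -1.09, SE 0.16; edgeR's quasi-likelihood test, Benjamini-Hochberg adjusted p = 0.0145). Of 27 lipogenesis and triglyceride synthesis genes tested out of 28, 0 were called by edgeR, and the median interaction was -0.04. There were 4 under an unadjusted p of 0.05 and 2 called by DESeq2, against 1306 and 186 of all 12385 genes tested. The 2 genes of this list called by DESeq2 went opposite ways. Fasn, the fatty acid synthase gene, had an interaction of -1.60 (SE 0.38) and Fads2, a fatty acid desaturase gene, 0.83 (SE 0.21).

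Hmox1 codes for heme oxygenase, a stress-inducible enzyme of heme breakdown. It stood at 24.6, 24.3 and 27.1 CPM in WT and 21.3, 24.6 and 20.2 in GRLKO on CR, and at 9.52, 8.47, 9.48 and 9.14 in WT and 20.7, 17.8 and 18.3 in GRLKO on the control diet. The genotypes overlapped on CR, while every GRLKO library was above every WT library on the control diet, 2.07 times the WT mean. The interaction was -1.25 (SE 0.13; edgeR's quasi-likelihood test, Benjamini-Hochberg adjusted p = 0.0012). The call was not made in the fit of all 78 libraries, where the adjusted p of the same test was 0.273. Hmox1 was the called member among 46 tested of the 47 drug metabolism and antioxidant genes (0 positive, 1 negative), whose median interaction was -0.01. Rnd3, a small GTPase that counters actin contraction, had the same shape: it overlapped on CR and was 1.63 times WT on the control diet. Its interaction was -0.93 (SE 0.16), a call lost in 11 of the 13 fits that left out 1 library.

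Fubp1 codes for a DNA- and RNA-binding protein known as an activator of Myc transcription. It stood at 26.1, 32.9 and 33.8 CPM in WT and 16, 13.7 and 14.7 in GRLKO on CR, and at 18.7, 22.9, 21.2 and 20 in WT and 28.3, 26.0 and 27.1 in GRLKO on the control diet. The genotypes were in opposite order on the diets without overlap (interaction -1.45, SE 0.15; edgeR's quasi-likelihood test, Benjamini-Hochberg adjusted p = 0.00108). Ap3s1, a subunit of the AP-3 vesicle adaptor, and the long noncoding RNA D930016D06Rik also lay below WT on CR and above WT on the control diet, with interactions of -1.12 (SE 0.17) and -1.30 (SE 0.23). The Ap3s1 call was lost without replicate 3 of the WT livers on CR, and that of D930016D06Rik in 10 of the 13 such fits. Srgap3, whose protein acts in Slit and Robo signaling, stood at 24.4, 26.5 and 22.5 CPM in WT and 5.01, 3.48 and 6.18 in GRLKO on CR, and between 4.99 and 8.68 in the 7 control livers. The genotypes were apart on CR and overlapped on the control diet (interaction -2.08, SE 0.31; edgeR's quasi-likelihood test, Benjamini-Hochberg adjusted p = 0.0149). Rnd2, known from the migration of neurons, had the same shape, with 26.7, 22.5 and 24.4 CPM in WT and 10.6, 10.1 and 9.27 in GRLKO on CR and 10.6 to 14.3 in the control livers. Its interaction was -1.13 (SE 0.16), and its exons overlap those of Vat1 on the other strand, so its counts are uncertain.

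Mitochondrially encoded transcripts formed the next group of calls. mt-Nd3 codes for a subunit of respiratory complex I. It stood at 1020, 1060 and 1220 CPM in WT and 201, 232 and 153 in GRLKO on CR, and between 935 and 1120 in the 7 control livers. The genotypes were far apart on CR and overlapped on the control diet (interaction -2.47, SE 0.18; edgeR's quasi-likelihood test, Benjamini-Hochberg adjusted p = 7.36e-05). mt-Atp6 and mt-Atp8, subunits of ATP synthase whose reading frames overlap in the mitochondrial genome (positions 7927 to 8607 and 7766 to 7969 in GRCm38), were lower in the same 3 libraries. mt-Atp6 stood at 12500, 13300 and 14100 CPM in WT and 4670, 5040 and 4150 in GRLKO on CR, with an interaction of -1.43 (SE 0.14; edgeR's quasi-likelihood test, Benjamini-Hochberg adjusted p = 0.000853). mt-Atp8 stood at 2930, 2780 and 3130 in WT and 1510, 1430 and 1260 in GRLKO on CR, with an interaction of -1.03 (SE 0.12; edgeR's quasi-likelihood test, Benjamini-Hochberg adjusted p = 0.0029). Reads of this pair cannot be fully assigned to either, so their split is uncertain.

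The mitochondrial messengers did not move evenly. All 13 had an interaction below 0, with a median of -0.28 and a range from -2.47 for mt-Nd3 to -0.00 for mt-Co1 (SE 0.10), and 3 were called. mt-Co1 stood at 36000, 38700 and 43200 CPM in WT and 37400, 36700 and 40000 in GRLKO on CR, where the genotypes overlapped. The 13 transcripts together made 12.3%, 12.6% and 14.1% of each library's counts in WT livers on CR and 10.7%, 10.4% and 10.4% in GRLKO livers on CR. On the control diet the genotypes overlapped, with 9.48% to 9.9% in WT and 9.08% to 9.83% in GRLKO. Nuclear-encoded oxidative phosphorylation genes were measured beside them: 48 of 48 were tested, 0 were called by edgeR, 0 were under an unadjusted p of 0.05 and DESeq2 called 0, with a median interaction of -0.02.

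The low level of mt-Nd3 was followed through all 78 libraries of the time series, in CPM of the library total. It lay between 156 and 248 in 5 libraries, which are the 3 GRLKO livers on CR at ZT16 and 2 of the 3 GRLKO livers on CR at ZT20, and between 532 and 1220 (median 884) in the others. At ZT20 on CR the 3 GRLKO livers held 860, 209 and 187 CPM of mt-Nd3 and 11700, 5350 and 4200 of mt-Atp6. Livers of a single genotype, diet and time thus differed widely in mt-Nd3. Ppp1cb (74.9, 58.0 and 51.4 CPM), Ythdf3 (54.3, 40.1 and 38.0), Acbd5 (183, 140 and 140) and Qk (31.6, 14.6 and 15.4), each called at ZT16, were split between the same livers at ZT20, as were mt-Atp8 (2700, 1780 and 1380), Cycs (68.2, 60.7 and 53.9) and Bcat2 (0.643, 7.12 and 4.84). Fubp1 (16, 17.4 and 15.6) and Insig1 (742, 785 and 670) were not. In a tally made after these values were seen, the 2 livers low in mt-Nd3 lay on the side of the ZT16 difference from the remaining liver for 15 of the 28 called genes other than mt-Nd3 (53.6%), against 39.7% of all genes tested. For 12 of the 28 (42.9%) they were also closer to each other than to that liver, against 23.3% of all genes tested. The tally sets 2 livers against a single liver and counts both mt-Atp6 and mt-Atp8, whose reads cannot be fully separated, so it is no test. What set these libraries apart was not tested.

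**Figure D3:**
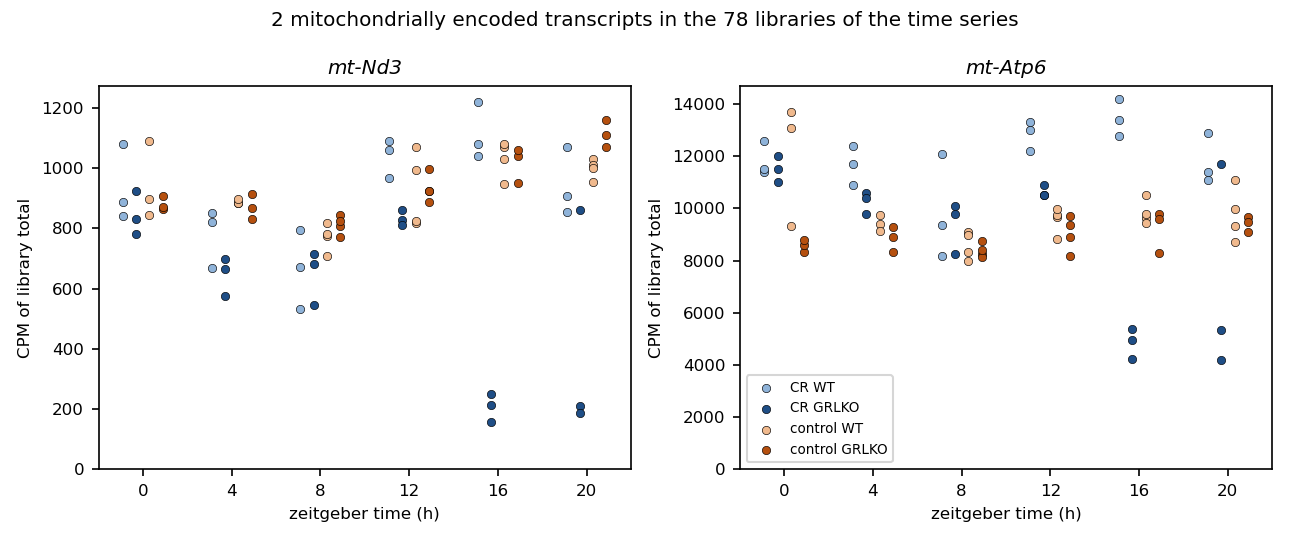
CPM of the library total for mt-Nd3 (left) and mt-Atp6 (right) in the 78 livers of the time series, by zeitgeber time, diet and genotype, 1 point a liver. For mt-Nd3, the 3 GRLKO livers on caloric restriction at ZT16 and 2 of the 3 at ZT20 lie at 156 to 248, below all other livers.

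The calls of Ddx46, Bcat2 and Tfec rest on a group in which every library was at 0. Ddx46, an RNA helicase of the spliceosome, stood at 28.1, 16.2 and 27.9 CPM in WT and at 0 in all 3 GRLKO livers on CR, and between 33.8 and 43.6 in the control livers. Set against a floor of 3 counts per library, its mean was at least 138-fold lower in GRLKO on CR. The interaction of Ddx46 was called (edgeR's quasi-likelihood test, Benjamini-Hochberg adjusted p = 2.66e-05). Bcat2, a mitochondrial aminotransferase of branched-chain amino acids, was at 0 in the 3 WT livers on CR. It stood at 5.29, 4.63 and 6.00 CPM in GRLKO on CR, at least 29.9-fold higher by the same floor. Its interaction was called (adjusted p = 0.0289 in the quasi-likelihood test of edgeR (Benjamini-Hochberg)). Its control values lay between 1.17 and 8.39 CPM. Tfec, a transcription factor of the MiT family that falls outside the rule for named genes and was picked after its values were seen, was at 0 in the 3 GRLKO livers on the control diet and at 0.61 to 1.97 CPM in the other 10, at least 4.35-fold lower by that floor. Across the 78 libraries Ddx46 was at 0 in 4, Bcat2 in 29 and Tfec in 13. What lies behind these counts of 0 was not tested, and the values are uncertain. Bcat2 was the called member of 39 amino acid catabolism and urea cycle genes, all tested (1 positive, 0 negative, median interaction -0.02), and its call was lost in 10 of the 13 fits that left out 1 library.

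The remaining called genes fall outside that rule and were also picked after their values were seen. They are Ppp1cb, a catalytic subunit of protein phosphatase 1, Ythdf3, a reader of methylated adenosine in RNA, Cycs, the electron carrier cytochrome c, Slc25a44, a mitochondrial carrier of branched-chain amino acids, Acbd5, an acyl-CoA binding protein of peroxisomes, and Qk, an RNA-binding regulator of splicing. Each lay below WT in all GRLKO livers on CR, at 0.562 to 0.684 times the WT mean. On the control diet the ratio was between 0.88 and 1.2. Ppp1cb had the smallest adjusted p of them in the quasi-likelihood test of edgeR (Benjamini-Hochberg), 0.00193. The calls of Slc25a44, Acbd5 and Qk were lost in 8, 11 and 12 of the 13 fits that left out 1 library.

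The 21 gene lists hold 656 genes, of which 639 were tested and 9 (1.41%) were called, against 0.234% of all genes tested. The lists were drawn up with earlier results of these data known, so the shares are no test of the lists. Insulin and FoxO signaling, with 30 genes tested of 32, had 1 called positive, Tsc22d3, and 0 negative, and a median interaction of 0.26 with 23 above 0. The remaining 14 lists had 0 genes called by edgeR; in the fit of all 78 libraries their called genes were Pdia4, Btg1, Cyp27a1 and Serpina6.

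Stress and growth arrest genes lay mostly below 0 in the interaction. The heat shock and unfolded protein response list, with 31 of 31 genes tested, had a median of -0.39 and 26 genes below 0. The median genotype difference was -0.21 on CR and 0.19 on the control diet, and 22 genes were below 0 on CR and above 0 on the control diet. The list had 0 genes called by edgeR, 10 under an unadjusted p of 0.05, and 1 called by DESeq2 and in the fit of 78 libraries, the chaperone gene Pdia4 (-0.86, SE 0.22). Growth arrest and immediate early genes, with 31 of 32 tested, had a median of -0.54 and 26 below 0. None was called by edgeR, 8 were under an unadjusted p of 0.05 and DESeq2 called 4: Plk3, Gadd45g and Id3 below 0 and Btg1 above. Gadd45g, a growth arrest gene, had a genotype difference of -0.17 (SE 0.45) on CR and 2.16 (SE 0.42) on the control diet. Cdkn1a, the gene of the cell cycle inhibitor p21, stood at 27.2, 27.9 and 19.6 CPM in WT and 11.5, 12.5 and 4.79 in GRLKO on CR, and at 5.43, 4.96, 2.63 and 4.10 in WT and 3.10, 1.60 and 1.41 in GRLKO on the control diet. It was lower without GR on CR in every library and overlapped on the control diet, and its interaction was -0.31 (SE 0.53).

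Ribosome biogenesis genes lay mostly above 0: the median of the 30 tested of 31 was 0.27, with 24 above 0. Its counts were 0 called by edgeR, 5 under an unadjusted p of 0.05 and 0 called by DESeq2. The nucleolar protein genes Ncl (0.42, SE 0.12) and Nhp2 (0.60, SE 0.19) had its smallest p values. For the 47 of 47 cytosolic ribosomal protein genes the median was 0.00, 6 were under an unadjusted p of 0.05, and edgeR and DESeq2 called 0.

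Amino acid transporters, serine synthesis and methionine cycle genes, with 28 of 30 tested, had a median interaction of -0.23 and 0 called by edgeR, 8 under an unadjusted p of 0.05 and 2 called by DESeq2, Slc1a4 (-1.05, SE 0.25) and Slc3a1 (-0.95, SE 0.26). Slc3a1, a subunit of the cystine transporter, was below WT in every GRLKO library of both diets, at 0.14 and 0.269 times WT. Gluconeogenesis and glycolysis genes had 26 of 26 tested, a median of 0.00, 6 under an unadjusted p of 0.05 and 1 called by DESeq2, G6pc. Glycogen genes had 16 of 18 tested, a median of 0.14, 4 under an unadjusted p of 0.05 and 1 called by DESeq2. That gene was Ppp1r3c, a glycogen-targeting subunit of protein phosphatase 1, with an interaction of 1.26 (SE 0.36).

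For the growth hormone, STAT5 and sex-biased genes, 43 of 46 were tested, and the median was -0.06. Of the 43, 13 were under an unadjusted p of 0.05 and DESeq2 called 4, against 1306 and 186 of all 12385 genes tested. Cyp2b9, a female-biased cytochrome, stood at 454, 736 and 248 CPM in WT and 804, 884 and 925 in GRLKO on CR, against 0 to 0.305 in WT and 11.5, 2.80 and 20.8 in GRLKO on the control diet. It was higher without GR in every library of both diets. Mup15 was near 0 in WT livers on CR (0, 0.555 and 0) and at 24.3, 67.1 and 20.5 CPM in GRLKO, while control livers held 441 to 4460. Both belong to families of near-identical genes, so their counts are uncertain, and neither interaction was called by edgeR.

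Clock genes had 24 of 24 tested, a median of 0.11, 6 under an unadjusted p of 0.05 and 2 called by DESeq2, Cry1 (0.53, SE 0.13) and Ciart (-1.07, SE 0.27), both repressors of the clock. Bile acid genes had 26 of 27 tested, a median of 0.08, 6 under an unadjusted p of 0.05 and 2 called by DESeq2. These were Cyp27a1, a sterol hydroxylase gene (-0.57, SE 0.11), and Nr0b2, the gene of the repressor SHP (2.09, SE 0.56). For autophagy and lysosome genes, 36 of 36 were tested, the median was 0.03, 6 were under an unadjusted p of 0.05 and DESeq2 called 1, Lamp2 (-0.32, SE 0.10). The list of GR and hormone handling genes had 9 of 10 tested, a median of 0.12, 1 under an unadjusted p of 0.05 and 1 called by DESeq2. This was Serpina6, which codes for the corticosteroid-binding globulin of plasma and stood at 4.07 times WT on CR and 1.55 times on the control diet.

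Among 40 cell type markers tested over the 10 lists, those of hepatocytes included, edgeR called 0. Under an unadjusted p of 0.05 were 4 (Hnf4a, Clec4g, Krt19 and Alas2), and DESeq2 called 1, the erythroid gene Alas2. Over all 12385 genes tested these counts were 1306 and 186. The median interaction was 0.07 for 8 Kupffer and myeloid markers (all 8 tested), 0.29 for 6 endothelial markers (6 tested), 0.27 for 6 stellate markers (6 tested), 0.51 for 5 cholangiocyte markers (4 tested) and 0.60 for 6 erythrocyte markers (5 tested). It was -0.23 for the 1 lymphocyte marker tested of 7. In these lists the genotype groups overlapped in the marker sum, except that the endothelial sum was lower in GRLKO on the control diet (80.1 to 102 CPM) than in WT (105 to 108). Their most abundant genes were Clec4f, Clec4g, Dcn, Spp1, Hbb-bs and Ptprc.

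Adipocyte markers summed to 8.71, 8.32 and 8 CPM in WT and 17.8, 21.1 and 15.1 in GRLKO on CR, and to 11.5, 9.80, 5.19 and 4.82 in WT and 24.7, 8.87 and 10.4 in GRLKO on the control diet. The sum was higher without GR on CR and overlapped on the control diet. Of 8 markers 3 were tested, with a median interaction of 0.21, Fabp4 was the most abundant at a mean of 5.37 CPM, and Plin1 was at 0 throughout. Fat tissue also expresses Car3, and the part of fat cells in its call was not tested. Neutrophil markers summed to 0.208 to 0.795 CPM in WT and 0.844 to 0.969 in GRLKO on CR and to at most 0.48 in the control livers. None of the 5 was tested, S100a9 was the most abundant, and Ly6g and Mpo were at 0.

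Exocrine pancreas markers summed to 786 CPM in replicate 2 of the WT livers on the control diet, to 4.97 in replicate 3, and to at most 0.742 in the other 11 libraries. Amy2a5 was the most abundant, and none of the 10 markers passed the filter on low counts. Without that library edgeR called 22 genes, 21 of them among the 29.

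RefSeq's promoter table (GRCm38.p6) held 16 of the 29 called genes, 55.2%, so a check of GR, forkhead and STAT5 motifs over the set is void: too few of its members have a sequence.

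The same contrast at ZT12, the hour at which food arrives, shows where ZT16 stands apart. There were 3 WT and 3 GRLKO livers on CR and 4 of each on the control diet, from other mice. Of 12225 genes tested at ZT12, 123 (1.01%) were called by the quasi-likelihood test of edgeR (Benjamini-Hochberg), 60 positive (0.491%) and 63 negative (0.515%). Car3, Bdh1 and Serpina3k were called at both times, with ZT12 interactions of 1.73 (SE 0.30), 0.87 (SE 0.14) and -2.64 (SE 0.30).

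The difference itself, the ZT16 interaction minus the ZT12 interaction, was tested in a fit of the 27 libraries. Of 12727 genes, 73 (0.574%) were called, 44 positive (0.346%) and 29 negative (0.228%), by the quasi-likelihood test of edgeR (Benjamini-Hochberg). Of the 29 genes called at ZT16, 10 were among them. Angptl4 had an interaction of 1.65 at ZT16 and -0.57 (SE 0.35) at ZT12, a difference of 2.25 (SE 0.43; edgeR's quasi-likelihood test, Benjamini-Hochberg adjusted p = 0.0214). Mid1ip1 had -1.09 at ZT16 and 0.89 (SE 0.31) at ZT12, a difference of -1.96 (SE 0.36; edgeR's quasi-likelihood test, Benjamini-Hochberg adjusted p = 0.0173). Neither was called at ZT12, where the adjusted p of the same test was 0.503 for Angptl4 and 0.198 for Mid1ip1.

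Fubp1 had an interaction of 0.05 (SE 0.19) at ZT12, a difference of -1.48 (SE 0.25; edgeR's quasi-likelihood test, Benjamini-Hochberg adjusted p = 0.00835). mt-Nd3 had -0.39 (SE 0.13) at ZT12, a difference of -2.05 (SE 0.22; edgeR's quasi-likelihood test, Benjamini-Hochberg adjusted p = 6.81e-05). The others of the 10 were mt-Atp6, Ap3s1, Ppp1cb, Acbd5, Ddx46 and Bcat2, of which all but Bcat2 were lower at ZT16 than at ZT12 in the interaction. Insig1, with 0.41 (SE 0.35) at ZT12, and Tsc22d3, with -0.33 (SE 0.30), were not called in the difference, at adjusted p values of 0.16 and 0.0914 in the quasi-likelihood test of edgeR (Benjamini-Hochberg). They are not shown to be particular to ZT16.

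Cdkn1a stood out by its change from ZT12. Its interaction was -3.72 (SE 0.43) at ZT12, called, and -0.31 (SE 0.53) at ZT16, a difference of 3.44 (SE 0.72; edgeR's quasi-likelihood test, Benjamini-Hochberg adjusted p = 0.0304). Genes not called at ZT16 had the smallest p values among the positive differences: Nucks1, a chromatin protein, Clpx, a mitochondrial chaperone, Nudt16l1, Fbxo31, an F-box protein, and Chd1l, a chromatin remodeler. For each the interaction was below 0 at ZT12 and called there. Nucks1 went from -0.91 (SE 0.12) at ZT12 to 0.35 (SE 0.14) at ZT16, and Clpx from -1.07 (SE 0.16) to 0.58 (SE 0.22). Apol7a, an apolipoprotein L gene, went the other way, with a difference of -1.28 (SE 0.21). Left out 1 at a time, the libraries gave 49 to 148 calls at ZT12 and 32 to 91 for the difference between the hours.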

How the data were processed

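The authors' deposited gene-level estimated counts were used. Their processing names FastQC 0.11.9, Salmon 1.8.0, tximport 1.18.0, MultiQC 1.12 and DESeq2 1.30, with build mm10. The transcript annotation is not given. Symbols were matched to 27244 of 27654 gene identifiers. The tables of the wild-type diet experiment and of the corticosterone experiment, and all variance-stabilized values, were not used.

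Counts were rounded and fitted per group in edgeR 4.0.16 (R 4.3.3), with filterByExpr (minimum count 10), TMM factors and quasi-likelihood F tests. Genes with a Benjamini-Hochberg adjusted p under 0.05 are the called genes. The SE is the absolute log2 value divided by the square root of F. Named genes are Nr3c1, the largest called interactions at 5 CPM or more in each direction, the called or lowest-p genes of each list, the top genes of the difference between the hours, and Cdkn1a and Fkbp5. Mvd, Pmvk, Gadd45g and mt-Co1 fall outside this rule and were picked after their values were seen, as were the called genes it misses. Alternatives were DESeq2 1.42.0, limma-voom 3.58.1 with sample weights, RLE factors, other filters, all 78 libraries in a single fit, each library left out and a replicate block. Leaving out the mitochondrially encoded genes was chosen after seeing the data. Members and gene lists were chosen with earlier results of these data known. The scripts were tested on simulated counts.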

Additional observations from a re-analysis of the deposited data

Results flagged for a closer look

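In the WT livers on the control diet, the only ZT16 group of 4, a Dixon test asked whether 1 library lay far from the others. It was run for 68 genes and 10 marker sums. By chance it points at about 1 in 20, so about as many as the 4 it found would be found by chance. These were Ppp1r3c at 35.7 CPM and Plk3 at 70.1 CPM in replicate 3, and Pdia4 at 194 CPM and the exocrine pancreas marker sum at 786 CPM in replicate 2.

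For 18 of the 68 named genes, against 73 of all 12727 genes tested (0.574%), the interaction at ZT16 differed from that at ZT12 in a direct test (edgeR's quasi-likelihood test, Benjamini-Hochberg adjusted p under 0.05). Of the 18, 10 were named for being at the top of this difference, so their number follows in part from that choice. The log2 differences above 0 were 18.49 for Bcat2, 2.25 for Angptl4, 1.36 for Cry1, 1.29 for Nucks1, 1.67 for Clpx, 8.16 for Nudt16l1, 1.31 for Fbxo31, 1.81 for Chd1l and 3.44 for Cdkn1a. Those below 0 were -11.81 for Ddx46, -2.05 for mt-Nd3, -1.48 for Fubp1, -1.16 for mt-Atp6, -1.58 for Ap3s1, -1.96 for Mid1ip1, -1.28 for Apol7a, -0.61 for Ppp1cb and -1.11 for Acbd5. The values for Bcat2, Ddx46 and Nudt16l1 come from groups at or near 0 counts and measure no fold.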

How the results depend on the processing

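The 29 genes called at ZT16 became 186 with DESeq2 (70 positive, 116 negative), 65 in the fit of all 78 libraries (19 and 46), 30 with limma-voom, 25 with RLE factors, 31 at a minimum count of 50, 29 without a filter and 22 without the mitochondrially encoded genes. Leaving out each library gave 18 to 49. Of the 29, DESeq2 also called 29, limma-voom 27 and the 78-library fit 15, and none changed sign. For the interaction at ZT12, the 123 genes called became 467 with DESeq2 and 402 with all 78 libraries, and 49 to 148 with a library left out. The 73 genes of the difference between the hours became 258 with DESeq2, 143 with all 78 libraries, 40 without a filter, 108 at a minimum count of 50 and 32 to 91 with a library left out.

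The labels do not say that replicate numbers pair the livers. Residual correlations between WT and GRLKO livers ran from -0.114 to 0.087 at the same number and from -0.085 to 0.112 at different numbers. With so few livers they cannot settle whether the numbers pair them. With the number as a replicate block, 3 genes were called at ZT16, 5 at ZT12 and 13 in the difference. The Nr3c1 interaction log2 at ZT16 was 0.0505 with the replicate block, against -0.03.

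With a library left out, the sign turned for interactions near 0. The Nr3c1 interaction log2 at ZT16 ran from -0.169 to 0.0568, that of Nudt16l1 from -0.36 to 0.34 and that of Cdkn1a from -0.55 to 0.14. None was called.

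With 3 to 4 livers a group, small interactions go undetected, and diet cannot be told apart from library set. Whole-liver RNA cannot tell cell number from RNA per cell. Estimated counts of like transcripts are uncertain.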
